A study of Mus musculus with 9 samples.

Results

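Cytosolic ribosomal protein genes encode the protein part of the ribosomes that translate nuclear mRNA. They were followed through CD11b+ bone marrow cells (myeloid cells selected by the integrin that Itgam encodes) of 9 male C57BL/6 mice, with 1 total RNA library per mouse. Members were taken by name, as all rows for Rpl, Rps, Rplp and Rpsa genes outside the Rps6k kinases with at least 10 counts summed over the 9 libraries. By this rule 87 of 23337 rows were members: 42 large subunit genes, 31 small subunit genes and 3 genes of the P-stalk (76 canonical genes together), 7 paralogs, 3 pseudogene rows and Rps19bp1, which has a matching name but does not encode a ribosomal protein. Of 91 rows with a matching name, 4 were left out by the count minimum. Rpl26 and Rpl34-ps1 had 0 counts in all 9 libraries, Rpl31-ps12 had 1 count and Rpl10l, just outside the minimum, had 4. Just inside it were Rpl39l with 21 counts and Rpl30 with 26.

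The PBS group received 100 µl of PBS in the tail vein on days 1, 3 and 5. The EnzR EV group received on those days 10 µg of protein of extracellular vesicles from CWR-R1 prostate cancer cells resistant to enzalutamide, an androgen receptor inhibitor. The EnzR EV + HDL NP group received the same EnzR EVs and, on days 0, 2 and 4, HDL NPs, synthetic nanoparticles that resemble high-density lipoprotein. All groups held intact wild-type mice with 3 libraries each, and the EVs came from human cells of a single line. The comparisons ask whether EnzR EVs altered transcripts of marrow myeloid cells and whether HDL NPs modified the response.

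A ribosome has a small subunit, which decodes the mRNA, and a large subunit, which forms the peptide bond, and each ribosomal protein is in general present as 1 copy, apart from the P-stalk proteins that recruit elongation factors. Their mRNAs carry a 5′ terminal oligopyrimidine tract (TOP): a cytosine at the cap followed by an unbroken run of C and T in the gene. Through this tract mTORC1 and its effector Larp1 control how well the mRNAs are translated, which a count of transcripts does not measure. Ribosomal protein mRNAs are short, abundant and have given rise to many processed pseudogenes.

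The start of the gene is shown for the 3 highest and the 3 lowest called slopes on the ribosomal RNA share, described further on, with an entry in the RefSeq promoter table (GRCm38.p6) and for Rps6, whose product is the target of S6 kinase. Each line holds 15 bases before and 15 bases from the annotated first base, on the strand of the gene, and capitals mark the longest unbroken run of C and T.
Rps9, chr7:3704026-3704055, plus strand: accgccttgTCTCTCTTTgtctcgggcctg
Rpl35, chr2:39005117-39005146, minus strand: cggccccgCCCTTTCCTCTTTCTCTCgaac
Rpl6, chr5:121204486-121204515, plus strand: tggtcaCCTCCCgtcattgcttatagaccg
Rps27l, chr9:66946071-66946100, plus strand: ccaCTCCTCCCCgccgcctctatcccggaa
Rpl37, chr15:5116598-5116627, plus strand: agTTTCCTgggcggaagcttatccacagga
Rplp2, chr7:141447636-141447665, plus strand: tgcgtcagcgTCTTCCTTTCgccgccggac
Rps6, chr4:86857353-86857382, minus strand: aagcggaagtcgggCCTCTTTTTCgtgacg
The run stood across the annotated start in Rpl35 (18 bases), Rps6 and Rplp2 (10 bases each) and Rps9 (9 bases), and ended before it in Rpl6, Rps27l and Rpl37. The table had no entry for Rplp1, Rpl21 and Rpl32, among others, and 2 for Rps27l, of which 1 is shown.

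The table held promoters for 63 of the 87 members, 75 in all. A cytosine stood at the annotated first base in 29.3% of these 75 promoters and in 16.3% of all 32851 promoters, and at least 4 pyrimidines from the first base in 22.7% and 6.86%. CCGGAAG, a core motif of ETS factors, was found on either strand within the 300 bases (250 before and 50 after the start) in 34.7% of the member promoters and in 8.86% of all promoters. ATGGCGGC, the core of the YY1 motif, was found on either strand in 6.67% and 2.24%, and TATAAA on the gene strand in 8% and 8.32%. These are descriptions of the sequence, which depend on where the start is annotated, and no factor was measured.

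The Itgam level was 1389 to 2006 CPM (counts relative to the library size after scaling by TMM, the trimmed mean of M values) in the 9 libraries, and summed levels of 10 mature neutrophil genes were 8633 to 16604 CPM and of 10 monocyte genes 2029 to 4028 CPM. The rows of 4 adult globin genes (Hba-a1, Hba-a2, Hbb-b1 and Hbb-b2) had 0 counts in all libraries. Totals were 2575776 to 18110561 counts per library, so that 3 counts stood at 0.166 to 1.16 CPM before TMM scaling, a limit of counting only. Rn45s, the row of the 45S ribosomal RNA precursor, separated the libraries. In PBS replicate 1, EnzR EVs replicate 1 and EnzR EVs replicate 3 it took 20.3%, 42.7% and 14.2% of the counts, and in the other 6 libraries 0.657% to 2.87%. The first 3 libraries also had the lowest totals, 2575776 to 8554487 against 13231038 to 18110561, so the Rn45s share and the depth cannot be told apart.

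The part of the counts in ribosomal protein rows overlapped between the 3 groups. The rows held 0.616%, 0.543% and 0.577% of all counts in the PBS libraries (replicates 1 to 3), 0.353%, 0.571% and 0.522% in the EnzR EV libraries and 0.601%, 0.472% and 0.407% in the EnzR EV + HDL NP libraries. The means were 0.579% ± 0.0361, 0.482% ± 0.114 and 0.493% ± 0.0985 (SD, n = 3 each), and the ranges of the groups overlapped. The lowest share was that of EnzR EVs replicate 1, the library with the most Rn45s. Outside Rn45s its share was 0.615%, and the shares became 0.772%, 0.552% and 0.583% in PBS, 0.615%, 0.578% and 0.608% in EnzR EVs, and 0.605%, 0.475% and 0.419% in EnzR EVs + HDL NPs. On that scale the 3 libraries with high Rn45s held 0.608% to 0.772% and the other 6 held 0.419% to 0.605%, which do not overlap. These are sums in which a few rows weigh most. Rps9 and Rplp1 had 2536 and 1480 of 9088 member counts in EnzR EVs replicate 1. In EnzR EVs replicate 2 they had 10410 and 4215 of 103440. Against its own mean in log2 CPM, the median member stood at −0.62 in EnzR EVs replicate 1, −0.02 in EnzR EVs replicate 3 and 0.04 in PBS replicate 1. With counts outside Rn45s as the total, mitochondrial ribosomal protein rows were also separated, but narrowly. They held 0.133% to 0.144% in the 3 libraries and 0.101% to 0.132% in the other 6. After TMM scaling their slopes on the Rn45s share, described further on, did not go up as a set. Of 74 tested, 4 were called higher and 11 lower, against 12.8% and 14.6% of all genes. By group these 75 rows held 0.127% ± 0.0150 of the counts outside Rn45s in PBS, 0.135% ± 0.00633 in EnzR EVs and 0.114% ± 0.0160 in EnzR EVs + HDL NPs (SD, n = 3 each). Fewer cells of a type and less RNA per cell cannot be told apart in these bulk libraries.

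**Figure D1:**
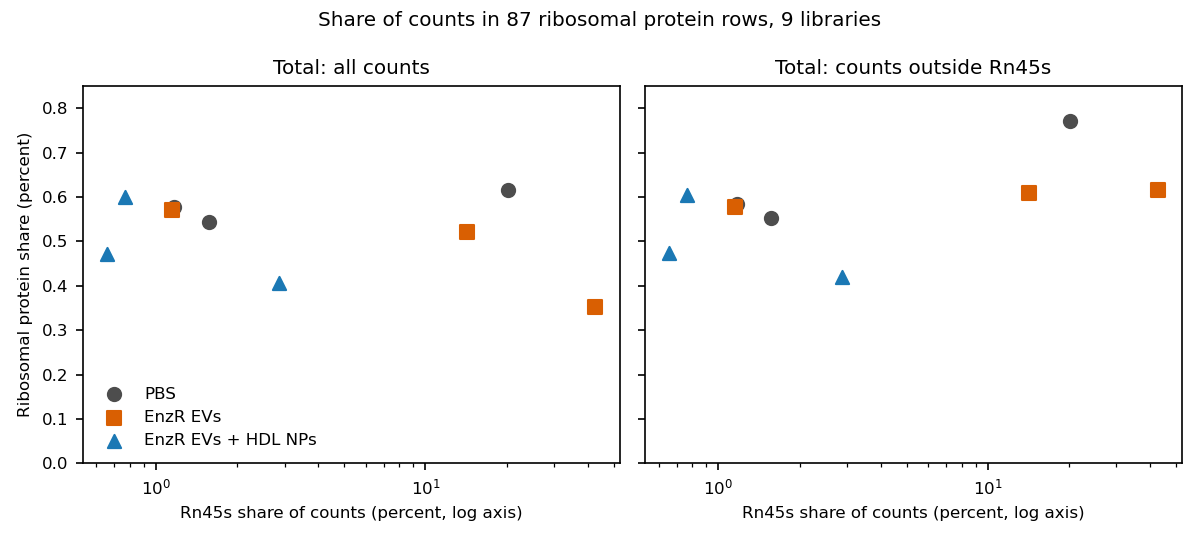
Share of counts in the 87 ribosomal protein rows (vertical axis, percent) against the Rn45s share of counts (horizontal log axis, percent), with 1 point per library and colour and shape for the group. With all counts as the total EnzR EVs replicate 1 is lowest at 0.353%, and with counts outside Rn45s as the total it is at 0.615%.

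The canonical genes differed by a factor of 1785 in counted level per length. Levels are given as mean CPM over the 9 libraries per kilobase of the transcript in GENCODE M21, on GRCm38. The highest was Rps9 (small subunit; chr7:3703993-3706897) with 990.3 CPM per kilobase, followed by Rplp1 with 650.9 (P-stalk), Rpl8 with 351.2 (large subunit, near the peptidyl transferase centre), Rpl4 with 271.1 (large subunit, lining the exit tunnel) and Rps14 with 250.1 (small subunit, a gene lost in the 5q− syndrome). The lowest were Rps16 with 0.555 CPM per kilobase, Rpl5 with 0.872, Rpl30 with 0.901, Rpl36a with 1.02 and Rpl28 with 1.16. The median of the 76 canonical genes was 27.1. Rps9 was above Rplp1, Rplp1 above Rpl8 and Rpl8 above Rpl4 in 9 of 9 libraries. Of 75 neighbouring pairs in the order of canonical genes, 5 kept their order in 9 of 9 libraries, and all other neighbours changed places in at least 1 library. Per kilobase of coding sequence Rps9 stayed the highest, while Rpl41, whose coding sequence is only 75 bases, came to rank 2 with 998.4 and Rpl39 to rank 4 with 647.6.

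**Figure D2:**
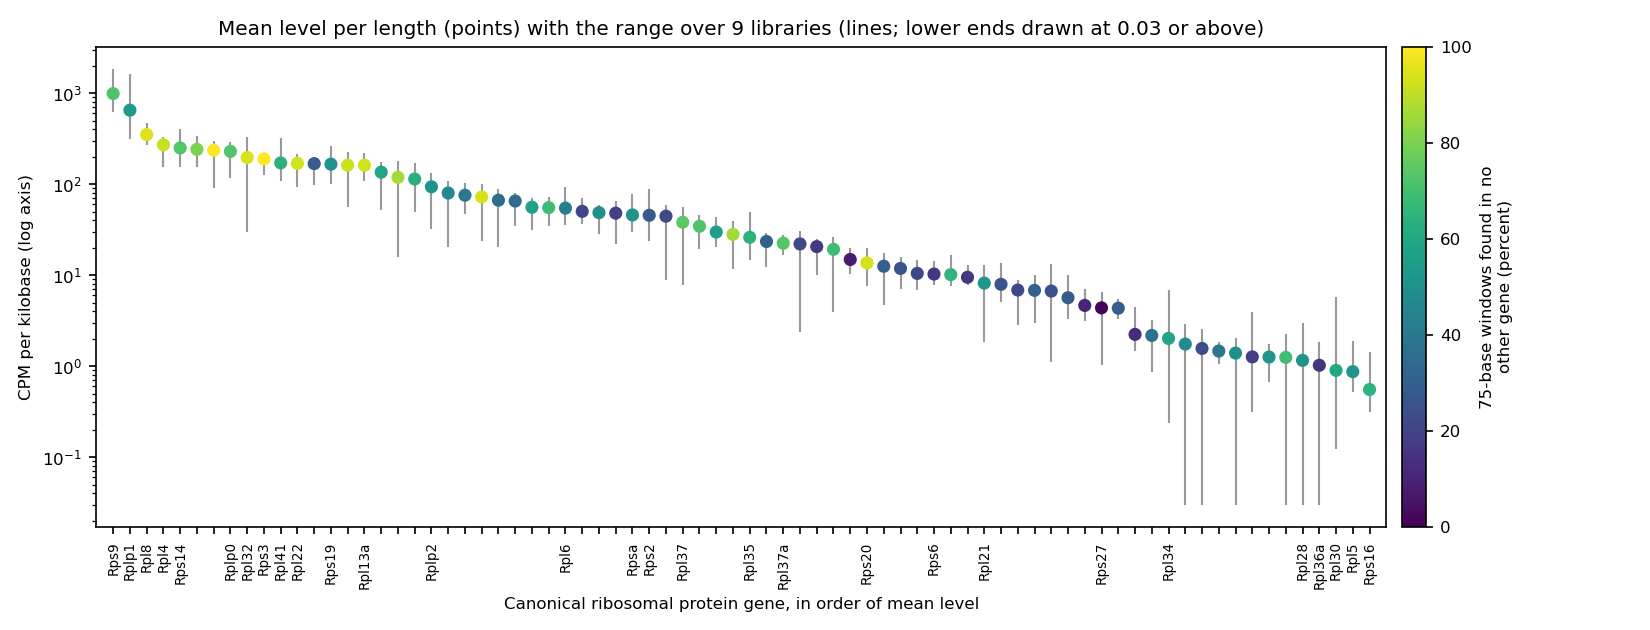
Mean CPM per kilobase of transcript (log axis) of the 76 canonical genes in order of level, some of them named. Lines run from the lowest to the highest of 9 libraries. The colour gives the percent of 75-base windows found in no gene at another locus. Levels run from 990.3 for Rps9 to 0.555 for Rps16, and genes with few unique windows lie mostly to the right.

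These levels went with how much of each transcript occurs elsewhere. Genes that overlap the locus of a member, on either strand, were not taken as other genes. For each gene the share of 75-base windows (the read length) found in the transcripts of no other gene was computed from GENCODE M21. This share had a median of 51.4% in the canonical genes, with 36 of 76 under 50%, and a median of 100% in 75 mitochondrial ribosomal protein genes, with 0 under 50%. Median levels were 10.4 CPM per kilobase in the 36 canonical genes with under 50% unique windows, 36.4 in the 30 genes with 50% to 90%, and 179.5 in the 10 genes with at least 90%. Across the 76 genes, which are not independent and share the libraries, Spearman's rho of level and unique share was 0.50 with transcript length and 0.61 with coding length. Rps27 had 1.48% unique windows and 4.38 CPM per kilobase, Rpl10, among the last proteins to join the large subunit, had 8.14% and 14.9, and Rps6 had 15.9% and 10.3. Rps3, a DNA repair factor as well as a ribosomal protein, had 100% and 189.6. Not all low rows follow this order, since of the 5 lowest Rps16 had 64.5% unique windows, Rpl30 59.9%, Rpl5 52.1% and Rpl28 51.3%, and only Rpl36a had fewer than 50%. How the counting treated reads that align to several places is not given in the sources used here, so levels of genes that share windows with other genes are uncertain, and their order is not an order of transcript abundance. Rpl26, at 0 counts, had 42.5% unique windows.

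Paralogs were counted apart from their parent genes where the sequences differ. The first 75 coding bases (the length of 1 read) of 2 pairs are shown from GENCODE M21 transcripts, with capitals at the positions where the members of a pair differ.
Rps27, gene at chr3:90212522-90213651, minus strand: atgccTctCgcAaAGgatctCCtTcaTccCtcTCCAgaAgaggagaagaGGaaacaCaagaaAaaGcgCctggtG
Rps27l, gene at chr9:66946086-66949516, plus strand: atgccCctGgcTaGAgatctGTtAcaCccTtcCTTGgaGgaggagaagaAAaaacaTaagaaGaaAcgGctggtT
Rpl36a, gene at chrX:134585654-134588062, plus strand: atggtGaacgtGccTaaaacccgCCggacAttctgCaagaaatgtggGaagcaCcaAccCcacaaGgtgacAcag
Rpl36al, gene at chr12:69182731-69184083, minus strand: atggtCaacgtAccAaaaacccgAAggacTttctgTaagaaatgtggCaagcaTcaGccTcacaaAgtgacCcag
Rps27 and Rps27l differ at 22 of these 75 positions and at 60 of 252 coding positions, and Rpl36a and Rpl36al at 13 of 75 and 39 of 318. No 75-base window was shared within either pair.

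In both pairs the paralog had the higher level. Rps27l stood at 29.2 CPM per kilobase against 4.38 for Rps27, and Rpl36al at 47.4 against 1.02 for Rpl36a, whose unique windows were 88% and 1.48%, and 61.9% and 15.4%, respectively. Rpl22l1 stood at 40.2 CPM per kilobase against 169.5 for Rpl22, with 50.4% and 93% unique windows. Rpl3l, a paralog known from muscle, stood at 1.31 CPM per kilobase with 100% unique windows, against 20.6 for Rpl3 with 16.8%. Rpl39l, known from testis, had 21 counts in all, and 0 counts in 4 of 9 libraries. Rps4y2, named Rps4l and annotated as a transcribed processed pseudogene in GENCODE M21, stood at 6.34 CPM per kilobase against 79.9 for Rps4x.

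EnzR EVs against PBS gave no call. edgeR's quasi-likelihood test with Benjamini-Hochberg adjustment was applied to the 12553 genes that passed its filter on low counts, 82 of the 87 members among them (Rpl30, Rpl39l, Rps15a-ps4, Rps16 and Rps29 did not pass). It called 0 of 82 members and 0 of 12553 genes (0%), and DESeq2 (0.129% of all genes with an adjusted p) and limma voom also called 0 members. At an unadjusted p under 0.05 edgeR had 1 member higher (1.22%, against 1.55% of all genes) and 0 lower (against 1.92%). The 3 EnzR EV libraries were all above the 3 PBS libraries in 1 member (1.22%, against 3.43% of all genes), Rps15a-ps6, and all below in 3 (3.66%, against 4.52%), Rpl28, Rps14 and Rps28. The median log2 fold change of the 82 members was −0.18, that of all genes −0.03, and 25 members (30.5%) lay above 0, against 46.5% of all genes. The 41 tested large subunit genes had a median of −0.17, the 29 small subunit genes −0.24 and the 3 P-stalk genes −0.34. The median was −0.06 without EnzR EVs replicate 1, −0.34 without EnzR EVs replicate 2 and −0.10 with the log2 Rn45s share as a covariate. Without the 3 libraries of highest Rn45s share it was 0.05, but that sets a single EnzR EV library (replicate 2) against 2 PBS libraries.

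The highest fold changes and the lowest belonged to rows of few counts. Rpl34 (large subunit) had 1.06, 0.115 and 0.400 CPM in PBS and 3.29, 0.852 and 1.66 in EnzR EVs. The groups overlapped, and the log2 fold change was 1.88 ± 0.81 (SE; edgeR adjusted p = 0.928). The pseudogene row Rps15a-ps6 followed at 1.69 and Rpl36a at 0.83, and low values were those of Rps19-ps3 at −1.16 and Rpl28 at −1.01. With 1 library left out in turn Rps15a-ps6 ranged from 0.73 (without EnzR EVs replicate 1) to 2.31, Rpl36a from 0.36 (without PBS replicate 3) to 2.00 (without PBS replicate 2), Rps19-ps3 from −2.61 (without EnzR EVs replicate 2) to −0.82, and Rpl28 from −1.38 to −0.51 (without PBS replicate 1). Rps28, a small subunit protein at the mRNA exit, had 53.2, 54.2 and 53.5 CPM in PBS and 26.3, 52.2 and 42.9 in EnzR EVs, without overlap.

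Markers of other cells were also compared between these groups. The summed level of the 9 erythroid genes with a row, 4 of them the adult globin genes at 0, was 65.8 to 78.1 CPM in PBS, 23.8 to 64.2 in EnzR EVs and 26.7 to 77.8 in EnzR EVs + HDL NPs. That of the 10 monocyte genes was 3416 to 4020 CPM in PBS and 2029 to 3480 in EnzR EVs. That of the 7 marrow macrophage genes with a row was 532 to 990.2 CPM in PBS, 426 to 581 in EnzR EVs and 464 to 632 in EnzR EVs + HDL NPs. Between PBS and EnzR EVs the erythroid sums did not overlap, and the monocyte and macrophage sums did. The early granulocyte sums, a list given further on, did not overlap either, at 2562 to 2724 CPM in EnzR EVs and 2033 to 2420 in PBS. The 14 lymphoid and plasma cell genes with a row summed to 53.8 to 75.2 CPM in PBS, 50.1 to 93.3 in EnzR EVs and 33.7 to 59.5 in EnzR EVs + HDL NPs, with a median log2 fold change of −0.98 for EnzR EVs against PBS over the 11 tested. edgeR called 0 genes of the erythroid, monocyte, macrophage and lymphoid lists. Lower at an unadjusted p under 0.05 were 2 erythroid, 2 monocyte, 3 macrophage (Cd5l, Mrc1 and Vcam1) and 3 lymphoid genes (Pax5, Klrd1 and Cd79b). Their part in the members' values was not tested.

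**Figure D3:**
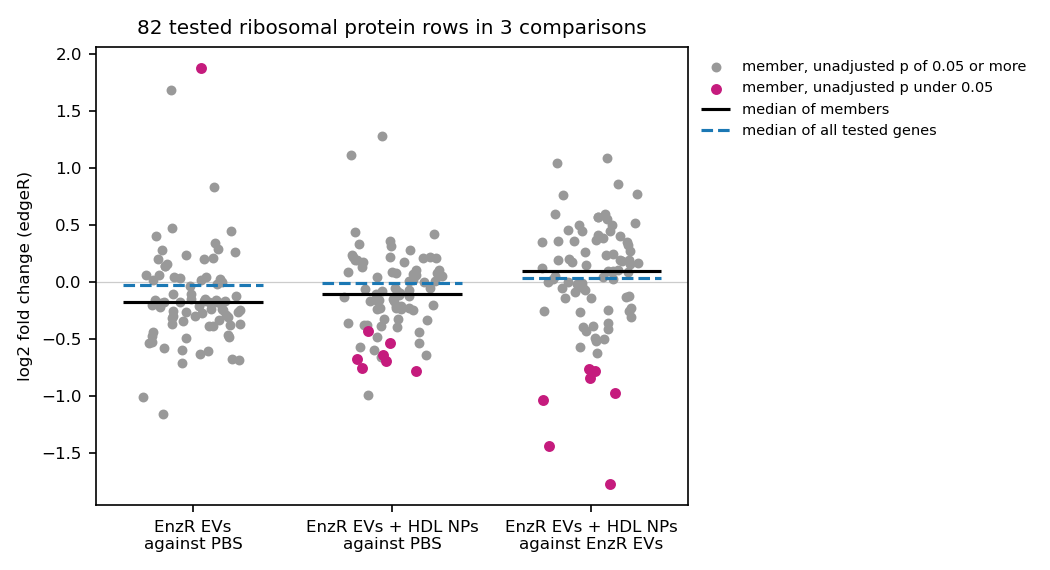
Log2 fold change by edgeR (vertical axis) of the 82 tested members in the 3 comparisons, with 1 point per member, coloured by whether the unadjusted p is under 0.05. Black lines give the median of the members (−0.18, −0.11 and 0.09) and dashed lines that of all genes tested.

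EnzR EVs + HDL NPs against PBS also gave no call among members (0 by edgeR, DESeq2 and limma voom; edgeR called 0% of all genes and DESeq2 0.0106%). At an unadjusted p under 0.05 edgeR had 0 members higher (against 1.02% of all genes) and 7 lower (8.54%, against 1.12% of all genes): Rps14, Rpl37a, Rpl41, Rps2, Rpl8, Rps19 and Rps4y2. In 12 members (14.6%) the 3 EnzR EV + HDL NP libraries were all below the 3 PBS libraries, against 6.21% of all genes, and in 3 members (3.66%) all above, against 6.96%. The median log2 fold change was −0.11 in the members and −0.01 in all genes, with 33 members (40.2%) above 0 against 48.9% of all genes. It was 0.02 without EnzR EVs + HDL NPs replicate 3, in which 65 of 82 members were below their own mean. The median was −0.26 without EnzR EVs + HDL NPs replicate 1 and −0.28 with the log2 Rn45s share as a covariate.

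Rps14, on the platform of the small subunit, had 244, 164 and 158 CPM in PBS, 133, 142 and 155 in EnzR EVs and 133, 124 and 91.3 in EnzR EVs + HDL NPs. Its PBS libraries were above those of both other groups. The log2 fold change of EnzR EVs + HDL NPs against PBS was −0.70 ± 0.21 (SE; edgeR adjusted p = 0.9997, exact permutation p = 0.1, the smallest that 3 against 3 can give). Rpl37a, a zinc-binding protein of the large subunit, had the smallest spread within groups of the 82 members, 0.13 on the log2 scale. It stood at 14.6, 15.4 and 14.2 CPM in PBS, 11, 14.3 and 13 in EnzR EVs and 9.34, 10.8 and 10.3 in EnzR EVs + HDL NPs. The last group was below the other two without overlap, by −0.54 ± 0.18 on the log2 scale against PBS (edgeR adjusted p = 0.9997, exact permutation p = 0.1). With the log2 Rn45s share as a covariate these values were −0.62 for Rps14 and −0.58 for Rpl37a, and without the 3 libraries of highest Rn45s share −0.47 and −0.55.

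In several other members of low fold change, as in Rps14, PBS replicate 1 stood apart from the other PBS libraries. Rpl41, the shortest ribosomal protein, had 142, 61.7 and 59.3 CPM in PBS and 49.1, 47.7 and 55.5 in EnzR EVs + HDL NPs, without overlap, and PBS replicate 1 was the high library. Its log2 fold change was −0.78, and −0.25 without PBS replicate 1. Rplp1, which had the lowest fold change in this comparison, −0.99, likewise stood at 598 CPM in PBS replicate 1 and at 201 and 219 in the other PBS libraries, and at 194, 163 and 155 in EnzR EVs + HDL NPs. Without PBS replicate 1 it was −0.30. Rps2, at the mRNA entry channel, had 70.2, 37.9 and 36.7 CPM in PBS and 33.6, 28.2 and 23.5 in EnzR EVs + HDL NPs, and its value of −0.75 became −0.39 without the 3 libraries of highest Rn45s share. Rpl8 had 404, 305 and 314 CPM in PBS and 279, 248 and 231 in EnzR EVs + HDL NPs, without overlap, at −0.43, and Rps19 and Rps4y2 stood at −0.65 and −0.68. Without PBS replicate 1 Rps19 was −0.27. Rps4y2 had 6.13 ± 0.335 CPM in PBS (SD, n = 3), so PBS replicate 1 did not stand apart there. The highest fold changes were again those of rows under 2 CPM in all 6 libraries, Rpl36a at 1.28, Rps15a-ps6 at 1.11 and Rpl24 at 0.44. Without PBS replicate 2 Rpl36a was 2.46, without PBS replicate 3 it was 0.81, and without PBS replicate 1 Rpl24 was 0.14.

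EnzR EVs + HDL NPs against EnzR EVs asks what HDL NPs added to the EVs. edgeR called 0 of 82 members and 0% of all genes, and DESeq2 (0.00532% of all genes) and limma voom 0 members. At an unadjusted p under 0.05 edgeR had 7 members lower (8.54%, against 6.97% of all genes) and 0 higher (against 3.58%), and 10 members (12.2%, against 8.58% of all genes) were lower and 2 (2.44%, against 8.99%) higher without overlap. The median log2 fold change was 0.09 in the members and 0.03 in all genes, with 47 members (57.3%) above 0 against 52.8% of all genes. It was −0.20 with the log2 Rn45s share as a covariate and −0.03 without EnzR EVs replicate 1 or without EnzR EVs + HDL NPs replicate 1, so its direction changed with the setting. Without the 3 libraries of highest Rn45s share it was −0.20, with a single EnzR EV library left. This comparison shares the EnzR EV + HDL NP libraries with the one against PBS.

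Rps2 had the smallest unadjusted p among members here, 0.00907 by edgeR, and did not pass after adjustment. It had 87.8, 45.9 and 45.3 CPM in EnzR EVs and 33.6, 28.2 and 23.5 in EnzR EVs + HDL NPs, without overlap, and its log2 fold change was −1.04 ± 0.33 (SE; edgeR adjusted p = 0.461, exact permutation p = 0.1). Rps19, the gene most often mutated in Diamond-Blackfan anaemia, had 164, 102 and 124 CPM in EnzR EVs and 83.4, 63.7 and 69.1 in EnzR EVs + HDL NPs, without overlap, with a log2 fold change of −0.85 ± 0.28 (SE; edgeR adjusted p = 0.461, exact permutation p = 0.1). With the log2 Rn45s share as a covariate the values were −0.55 for Rps2 and −0.37 for Rps19. Rplp1 at −1.44, Rps9 at −0.97, Rpl6 at −0.78 and Rpl41 at −0.76 were the other members above 10 CPM at an unadjusted p under 0.05. With that covariate they became −0.29, −0.05, −0.10 and −0.28. Rpl34 had the lowest value, −1.78, and Rps19-ps3, Rpl24 and Rpl32 the highest, 1.09, 1.04 and 0.86. With the covariate Rpl34 was −0.82, Rps19-ps3 0.86 and Rpl24 0.53, and Rpl32 turned to −0.08. Without EnzR EVs replicate 1 Rps2 was −0.69, Rplp1 −0.78 and Rpl32 0.42, and without EnzR EVs replicate 2 Rps19-ps3 was 2.53, Rpl24 2.99 and Rpl32 2.01. The lowest values with 1 library left out were 0.52 for Rps19-ps3 and 0.63 for Rpl24.

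The summed early granulocyte markers did not overlap between these groups, and the EnzR EV sums were above those of PBS as well. The summed level of 8 early granulocyte genes (Mpo, Elane and others) was 2562 to 2724 CPM in EnzR EVs, 1424 to 2209 in EnzR EVs + HDL NPs and 2033 to 2420 in PBS, and 0 of the 8 were called by edgeR, with 3 lower at an unadjusted p under 0.05. The 10 mature neutrophil genes summed to 8633 to 13777 CPM in EnzR EVs, 11233 to 16604 in EnzR EVs + HDL NPs and 10641 to 15389 in PBS. Their part in the members' values was not tested.

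The median member varied more between mice of a group than the median gene. The SD of log2 CPM within groups had a median of 0.47 in the 82 members and 0.36 in all genes tested, and ran from 0.13 in Rpl37a to 1.25 in Rps23. In EnzR EVs replicate 1 the median member stood 0.62 below its own mean over the 9 libraries on the log2 scale, and 59 of 82 members were below their mean, where the median of all genes was −0.08. The other libraries had medians between −0.29 (EnzR EVs + HDL NPs replicate 3) and 0.27 (EnzR EVs + HDL NPs replicate 1). In each group the library with the highest Rn45s share was the lowest of the 3 for 32 members (39%), against 15% of all genes, and the highest of the 3 for 3 members (3.66%), against 11% of all genes.

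**Figure D4:**
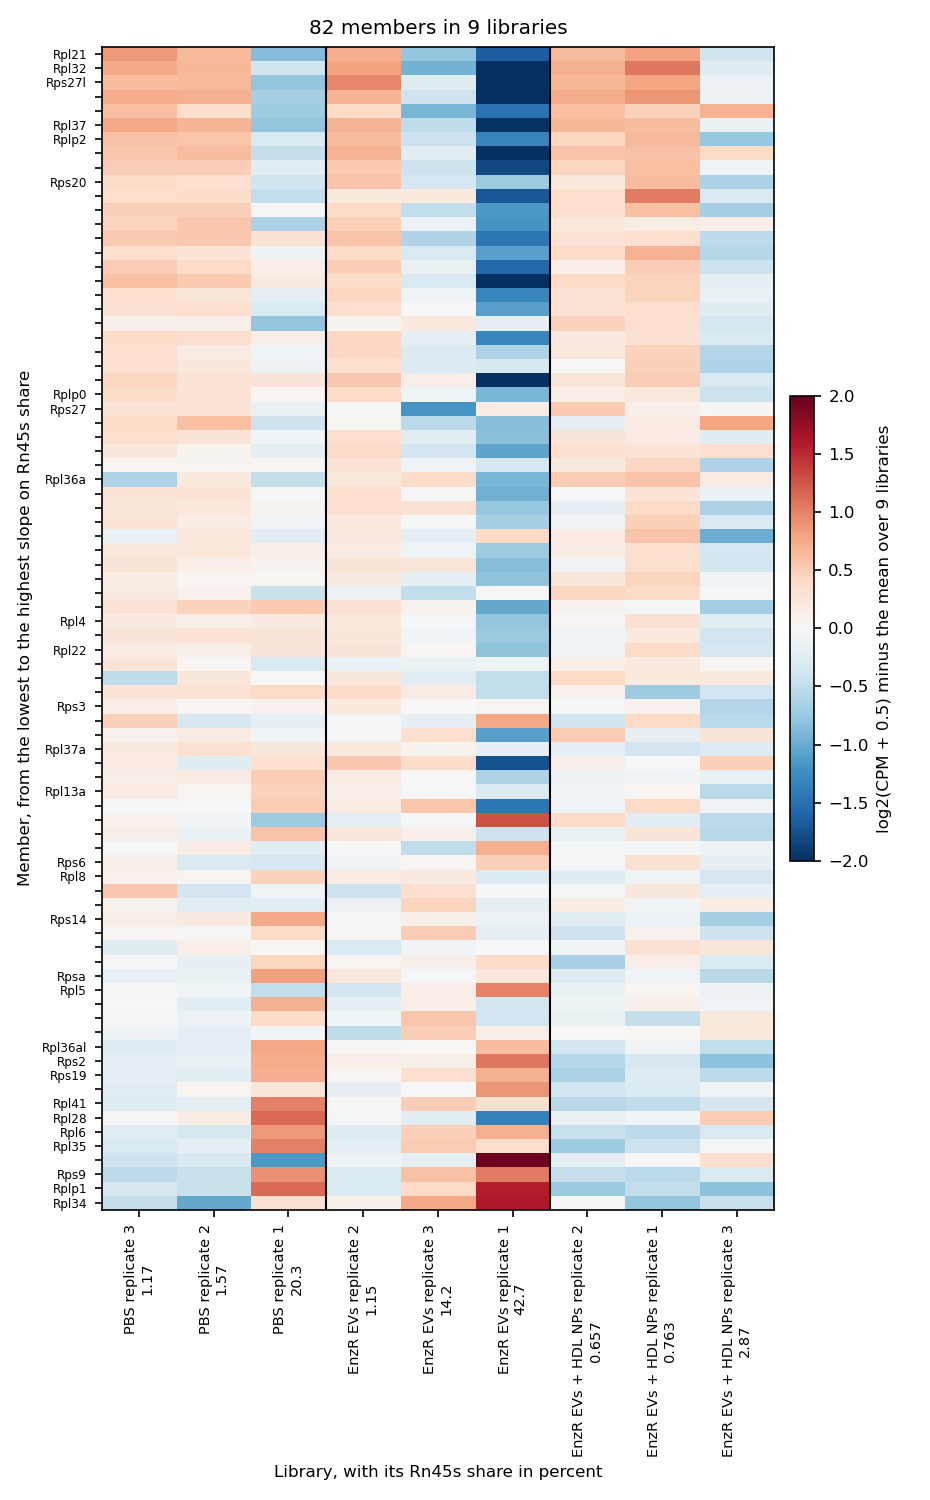
The 82 tested members (rows, from the lowest to the highest slope on the Rn45s share) in 9 libraries (columns, by group and then by Rn45s share, printed in percent), coloured by log2(CPM + 0.5) minus the mean of the row. Blue at the top and red at the bottom of the columns for PBS replicate 1 and EnzR EVs replicate 1 mark members that were lower and higher where Rn45s was high.

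Within groups, slopes of members on the Rn45s share were called in both directions, lower ones above and higher ones below the share of all genes. A slope on the log2 Rn45s share was fitted with edgeR beside the group. It was called for 29 of 82 members (35.4%), against 27.4% of all 12553 genes: 22 members were lower at a higher share (26.8%, against 14.6% of all genes) and 7 were higher (8.54%, against 12.8%). The median slope was −0.10 on the log2 scale per doubling of the share in the members and −0.01 in all genes. By role, 3 of 41 large subunit genes were higher and 9 lower, 3 of 29 small subunit genes higher and 9 lower, and of the P-stalk Rplp1 was higher and Rplp0 and Rplp2 lower. Of 6 tested paralogs Rps27l and Rpl7l1 were lower.

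The lowest slopes were those of Rpl21, Rpl32 and Rps27l. Rpl21 fell by 0.48 ± 0.06 on the log2 scale per doubling of the Rn45s share (SE; edgeR adjusted p = 0.000113). It stood at 3.17, 10.0 and 11.7 CPM in PBS, 1.65, 10.6 and 3.43 in EnzR EVs and 11.2, 9.89 and 4.61 in EnzR EVs + HDL NPs, lowest in each group where Rn45s was highest. Rpl32, of the large subunit, had 62.3, 131 and 141 CPM in PBS, 15.4, 144 and 42.6 in EnzR EVs and 172, 136 and 70.1 in EnzR EVs + HDL NPs, and fell by 0.44 ± 0.05 per doubling (SE; edgeR adjusted p = 0.000135). Rps27l, a target of p53, had 6.69, 19.0 and 18.6 CPM in PBS, 1.65, 24.0 and 10.0 in EnzR EVs and 21.1, 19.2 and 11 in EnzR EVs + HDL NPs, and fell by 0.42 ± 0.06 (SE; edgeR adjusted p = 0.000322). Rpl37, Rplp2, Rps4x, Rps20 and Rpl3 had slopes of −0.40, −0.33, −0.28, −0.26 and −0.13, all called. The calls of Rps4x and Rpl3 did not hold at every setting. Rpl3 was not called with a block for the replicate number (−0.16) or without the 2 libraries of lowest totals (−0.10).

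The highest called slopes were those of Rplp1, Rps9 and Rpl35. Rps9 had 1270, 494 and 470 CPM in PBS, 1392, 554 and 1010 in EnzR EVs and 466, 490 and 549 in EnzR EVs + HDL NPs, highest in each group where Rn45s was highest, with a slope of 0.28 ± 0.04 (SE; edgeR adjusted p = 0.000257). Rplp1 had 598, 201 and 219 CPM in PBS, 812, 224 and 357 in EnzR EVs and 194, 163 and 155 in EnzR EVs + HDL NPs, with a slope of 0.31 ± 0.05 (SE; edgeR adjusted p = 0.00127). Its value in EnzR EVs + HDL NPs replicate 3 was the lowest of that group. Rpl35 had a slope of 0.23, Rpl6 0.22, Rpl41 0.17, Rps19 0.15 and Rps2 0.15. Without PBS replicate 1 Rpl35 was 0.16, Rpl41 0.08, Rps19 0.09 and Rps2 0.09, none of them called, and with library size only Rpl41, Rps19 and Rps2 were not called. With a block for the replicate number Rpl35, Rpl41, Rps19 and Rps2 were not called. Rpl34, the highest of all at 0.33, was not called (edgeR adjusted p = 0.12). Rplp1 and Rplp2 form a heterodimer in the P-stalk, and their slopes were of opposite sign. Rplp2 had 28.7, 52.2 and 53.7 CPM in PBS, 13.7, 55.4 and 26.2 in EnzR EVs and 56.0, 48.1 and 20.8 in EnzR EVs + HDL NPs, lowest in each group where Rn45s was highest. Rplp0, which anchors the stalk to the ribosome, had 309.4, 368.9 and 386.8 CPM in PBS, 158.6, 397.2 and 283.2 in EnzR EVs and 347.6, 330.5 and 222.5 in EnzR EVs + HDL NPs.

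Further members were described for a known role outside the ribosome or in signalling, and the slopes of Rpl5, Rpl11, Rps6, Rpl13a and Rpsa were not called. Rpl5 and Rpl11, which bind Mdm2 and so stabilise p53, were counted at 1.06 to 3.84 CPM and 0.880 to 1.54 CPM over the 9 libraries, with 52.1% and 39% unique windows. Their slopes were 0.09 and −0.08. Rps6, the S6 kinase target, had 6.86, 7.19 and 9.55 CPM in PBS, 12.6, 8.30 and 9.10 in EnzR EVs and 11.1, 8.70 and 7.89 in EnzR EVs + HDL NPs, and the groups overlapped. Rpl13a, a component of an interferon-γ dependent silencing complex in myeloid cells, had 230.2, 172.2 and 186.2 CPM in PBS, 138.3, 182.4 and 167.4 in EnzR EVs and 171.0, 160.9 and 114.3 in EnzR EVs + HDL NPs. The last group was below PBS without overlap, at −0.40 ± 0.20 on the log2 scale (SE; edgeR adjusted p = 0.9997, exact permutation p = 0.1). Rpsa, also a laminin receptor, had 126, 63.6 and 63.2 CPM in PBS, 82.9, 81.7 and 69.6 in EnzR EVs and 67.0, 58.4 and 48.3 in EnzR EVs + HDL NPs, the last below EnzR EVs without overlap.

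**Figure D5:**
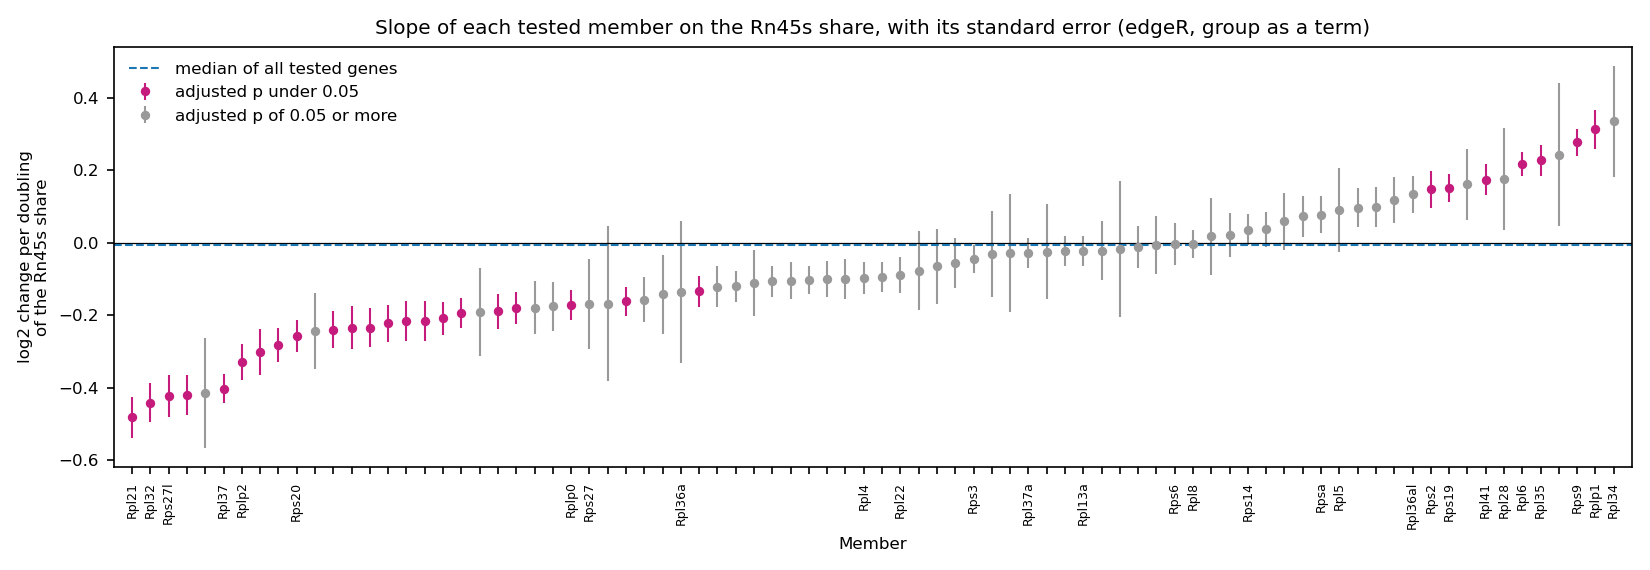
Slope on the log2 Rn45s share (vertical axis, log2 change per doubling of the share, with SE) of the 82 tested members, from Rpl21 at −0.48 to Rpl34 at 0.33, with called members coloured. The dashed line is the median of all genes tested, −0.01.

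The count of called slopes rests in part on EnzR EVs replicate 2, without which 12 members were called (5 higher, 7 lower) and 6.25% of all genes. Of the 29 calls 10 held at every setting other than the 2 that follow, which were chosen after seeing the data: those of Rpl6, Rplp1 and Rps9 (higher) and of 7 lower members, among them Rpl21, Rpl32, Rpl37, Rplp2, Rps20 and Rps27l. No such count is given for all genes, so 10 of 29 is not read as more or less than for other genes. With log2 total counts in place of the Rn45s share 38 members were called and 37.1% of all genes. Without PBS replicate 1 and EnzR EVs replicate 1, the libraries of lowest depth, 22 members were called (26.5%) and 8.57% of all genes, Rplp1 was not among them at 0.11, and Rps2 turned to −0.05.

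Sequence features of called and not called members were set side by side. Among canonical genes GC content of the transcript had a median of 56.5% in the 7 members with higher levels (50.7% to 59.6%), 52.5% in the 20 with lower levels (41.3% to 58.1%) and 51% in the 46 not called. The unique window share had medians of 54.1%, 65.8% and 38.3%. Across the 73 canonical genes tested, Spearman's rho of the slope was 0.23 with GC content, −0.06 with transcript length and −0.11 with the unique share, a description across genes that share the libraries.

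The slopes of other translation genes were of both signs, where 12.8% of all genes were called higher and 14.6% lower. Of 20 elongation factors and other TOP mRNA genes 3 were higher and 5 lower with the Rn45s share (median 0.00). Eef1b2, a subunit of the exchange factor of elongation factor 1, had a slope of 0.17 and Eif3e, a subunit of initiation factor 3, −0.23. Eef1b2 was not called with library size only (0.11) or with a block for the replicate number (0.11). Nor was it called without the 2 libraries of lowest totals (0.06). Of 20 genes of mTORC1 and TOP regulation 5 were higher and 2 lower (median 0.08), with Eif4ebp1 at −0.34 and Eif4ebp2 at 0.29, which encode inhibitors of the cap-binding protein; these 4 genes were chosen after their values were seen. Of 57 ribosome assembly factors 12 were higher and 4 lower (median 0.03), of 15 RNA polymerase I genes 2 and 1 (median −0.04), of 3 other ribosomal protein genes 0 and 1, and of 74 mitochondrial ribosomal protein genes 4 and 11 (median −0.03). Of the 10 mature neutrophil markers 0 were higher and 5 lower (median −0.11), and their part in the members' slopes was not tested. In the 3 comparisons between groups edgeR called 0 genes of all these lists. The median log2 fold change of the mTORC1 and TOP regulators was 0.20 for EnzR EVs against PBS, −0.08 for EnzR EVs + HDL NPs against PBS and −0.39 for EnzR EVs + HDL NPs against EnzR EVs, and with the log2 Rn45s share as a covariate 0.14, 0.03 and −0.08. Assembly factors had 0.08, −0.07 and −0.16, and with the covariate 0.08, 0.02 and −0.07. Mitochondrial ribosomal protein genes had 0.05, −0.08 and −0.12, and with the covariate 0.11, −0.15 and −0.27. All genes had −0.03, −0.01 and 0.03, and this covariate was added for the lists after seeing the data.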

How the data were processed

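Libraries of rRNA-depleted total RNA from CD11b+ marrow cells, 3 mice per group, were sequenced as single-end reads of 75 bases. The authors trimmed adapters (cutadapt 1.13), removed rRNA reads, aligned to mm10 with STAR and counted with htseq-count (HTSeq 0.6.1p1) on the UCSC annotation. They deposited whole-number counts per gene, not normalized, 1 table per library. The strand setting is not given in the sources used here, and labels and methods differ on RNA extraction and the HDL NP dose. Groups and replicate numbers came from sample titles.

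Counts were fitted in R 4.3.3 with edgeR 4.0.16 (TMM, filterByExpr, robust quasi-likelihood fit to 9 libraries, Benjamini-Hochberg adjustment over 12553 genes, threshold 0.05). For single genes a two-sided exact permutation test of CPM was added. DESeq2 1.42.0, limma 3.58.1, 3 other scalings, 2 other filters, a fit without ribosomal RNA rows, an Rn45s covariate, 6 libraries only, libraries left out and a replicate block were alternatives. The members and gene lists were chosen with earlier results of these data known. Named genes are a list by role, the 3 highest and 3 lowest fold changes and slopes, and the 5 highest and 5 lowest levels per length; members at an unadjusted p under 0.05 were added after seeing the data. Some genes are not reported here. Transcripts were matched by symbol to GENCODE M21.

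The fits were tested on simulated data first. The closest pair of libraries, PBS replicates 2 and 3, had a chi-square statistic of 4.51 for each gene, more than counting error gives, and both were kept. P-values measure the spread between these mice.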

Additional observations from a re-analysis of the deposited data

How the results depend on the processing

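The counts of called members (0 in each of the 3 comparisons) were 0 at every setting run, each library left out included. Leaving out each library in turn moved the median log2 fold change of the members between −0.34 and −0.06 for EnzR EVs against PBS. For EnzR EVs + HDL NPs the range was −0.26 to 0.02 against PBS and −0.03 to 0.26 against EnzR EVs. The ribosomal protein share moved between 0.560% and 0.596% (PBS), 0.437% and 0.546% (EnzR EVs) and 0.439% and 0.536% (EnzR EVs + HDL NPs). With counts outside Rn45s as the total the share was 0.636% in PBS and 0.6004% in EnzR EVs, and with counts outside ribosomal RNA, mitochondrial, haemoglobin and small RNA rows 0.642% and 0.606%, by construction of the total. EnzR EVs + HDL NPs stood at 0.4998% and 0.501% on these totals, below EnzR EVs. With all counts as the total its mean was above that of EnzR EVs, at 0.493% against 0.482%. Rows of many counts weigh most in these sums. Rps9 had a mean of 985 CPM in EnzR EVs and 502 in EnzR EVs + HDL NPs, and Rplp1 465 and 170. The median log2 fold change of the members between these groups was 0.09. The called slopes numbered 12 to 35 with a library left out, with 12 (6.25% of all genes) without EnzR EVs replicate 2 and 35 (29.4% of all genes) without EnzR EVs replicate 3. A paired fit with the replicate block gave 16 called slopes (8.73% of all genes) against 29, and 0 calls in the 3 comparisons. The labels say nothing of what a replicate number shares. The correlation of deviations from group means was over 0.1 in 6 of 9 pairs of the same number and in 6 of 18 of different numbers, and 5 of 9 libraries correlated best with a library of their own number. Of 27 fold changes followed singly, Rpl32 in EnzR EVs + HDL NPs against EnzR EVs changed direction, to −0.0760 with the Rn45s covariate and −0.20 without the 3 libraries of highest Rn45s share (1 EnzR EV library left), and among 34 slopes that of Rps2 did, to −0.0502 without the 2 libraries of lowest totals; the cause was not tested. Taking every row that starts with Rpsa as a member added none. Of 340 values of the slopes at settings other than leaving out 1 library, 29 (that of Rps2 included) were no longer called and 1 (Rpl34, without the group term) became called. Of 306 values with 1 library left out, 32 were no longer called. Depth limits the rows under a few CPM, whose libraries hold few counts.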
